A study of Mus musculus with 12 samples.

Results

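The genes of the proteasome were followed in sorted skin fibroblasts through the first days after wounding. Every gene whose symbol is Psm, a letter from a to g and a number was taken, which gave 50 of the 25239 genes in the count table. They comprise 32 constitutive subunits of the core and of its 19S cap (the testis alpha subunit Psma8 included), the 3 inducible catalytic subunits Psmb8, Psmb9 and Psmb10, the thymus subunit Psmb11, 5 activator genes, 1 inhibitor and 7 assembly chaperones. One more, Psmc3ip, carries the prefix but encodes a recombination factor and no subunit. Of the 50 genes, 48 had enough counts to be tested, and Psma8 and Psmb11 did not. The cells came from back skin of wild type male C57BL/6 mice at 8 weeks of age. Unwounded skin (NW) was set against full-thickness wounds made with a 4 mm punch and taken 16 h, 1.5 d and 3 d later, with 3 mice in each of the 4 groups. Tissue was digested with liberase, and live cells with surface SCA1 and without CD45 or CD31 were sorted, so that each library is the bulk RNA of 1 such sort.

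The proteasome is the protease that degrades proteins tagged with ubiquitin. Its core is a barrel of alpha and beta rings in which Psmb5, Psmb6 and Psmb7 hold the cutting sites, and its 19S cap binds ubiquitin chains, removes them and threads the substrate into the barrel with a ring of ATPases. Under interferon, Psmb8, Psmb9 and Psmb10 take the places of Psmb5, Psmb6 and Psmb7 in newly built particles, the immunoproteasome, whose products are favoured for presentation on MHC class I, and the PA28 activator of Psme1 and Psme2 caps the barrel without ubiquitin or ATP.

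Libraries held between 26389453 and 43493475 counts. Levels are read counts scaled to the library's size with TMM factors (CPM), given per library in the order of replicates 1, 2 and 3 or as mean ± SD (n = 3). Differences were tested in edgeR by quasi-likelihood F tests, with p values adjusted over all 14901 genes tested by the method of Benjamini and Hochberg. A gene is called at an adjusted p under 0.05, and log2 changes carry their SE. The sort label was met by its markers: Ly6a, which encodes SCA1, had group means of 1053 to 2019.9 CPM and Pdgfra of 149 to 790.4 CPM, while Ptprc (CD45) had at most 4.24 and Pecam1 (CD31) at most 1.71 CPM. The 20 leukocyte markers, of which 19 are in the table, summed to 0.00428% to 0.0103% of counts per library, and all groups overlapped. Most of the NW sum was Csf1r, with 2410, 1032 and 1644 counts, against 658, 463 and 416 at 16 h. At 16 h, 6 of the 13 leukocyte markers that could be tested were called higher and 1 lower. The flat sum therefore does not show an unchanged share of leukocyte RNA. Cd3e and Ms4a1 were at 0 throughout. The 8 endothelial markers summed to 0.00710% to 0.0113% in NW and 0.000897% to 0.00480% in the wound libraries, in which no library overlapped NW. Most of that sum was Tek, with 2158, 1730 and 2973 counts in NW. Of the 7 endothelial markers tested, all 7 were lower at 16 h and 3 were called. At 3 d, 5 were lower, of which 1 was called, and 2 were higher. The 8 pericyte markers summed to 0.00574% to 0.0105% in NW, 0.00208% to 0.00400% at 16 h, 0.00221% to 0.00393% at 1.5 d and 0.00579% to 0.00906% at 3 d, and 4 of the 8 were called lower at 16 h. The 8 fibroblast markers summed to 8.75% to 17.6% in NW, 4.25% to 10.2% at 16 h, 8.23% to 11% at 1.5 d and 12.1% to 20.3% at 3 d. The 14 keratinocyte markers, all detected, took 1.73% to 3.57% of counts in NW, 0.822% to 1.33% at 16 h, 0.404% to 0.721% at 1.5 d and 0.08% to 1.35% at 3 d. They did not move as one: 2 were called higher and 4 lower at 16 h, 2 and 8 at 1.5 d and 2 and 7 at 3 d. One library of each group stood apart by the share of its counts on genes shorter than 1 kb: 7.18% in NW replicate 2, 6.38% in 16 h replicate 3, 6.77% in 1.5 d replicate 1 and 6.04% in 3 d replicate 3, against 2.64% to 4.86% in the other 8. Many core subunits are that short, so results are also given without these 4 libraries and with the share as a covariate, alternatives chosen after the data were seen.

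At 16 h, 18 of the 48 tested proteasome genes rose and 1, Psmb9, fell, and 15 of the 18 that rose encode subunits of the 19S cap. Of all genes tested, 24.7% were called (13.5% rose and 11.2% fell). Over the 31 tested constitutive subunits the median log2 change was 0.79, with 30 of 31 higher, against -0.04 over all genes. At 1.5 d, 10 genes rose and none fell, beside 24.5% of all genes called (13.7% rose and 10.8% fell), and the constitutive median was 0.68. At 3 d, 4 rose and none fell, beside 21.1% of all genes called (12% rose and 9.15% fell), and the constitutive median was 0.25. By the libraries themselves, 25 of the 48 genes lay above NW without overlap at 16 h and 1 below (20.4% and 20.9% of all genes), 18 and 1 at 1.5 d (20.5% and 20.2%) and 8 and 1 at 3 d (20.9% and 19.4%), and the 1 below was Psmb9 each time. Over the 4 groups together, 16 of 48 genes differed by the F test, a share of 33.3% beside 29.7% of all genes tested. In bulk RNA, a change in the mix of sorted cells cannot be told apart from a change per cell. The summed share of keratinocyte markers was lower in every wound library than in any NW library, although 2 of the 14 were called higher at each time. The sum of the endothelial markers, mostly Tek, was also lower in every wound library. That of the pericyte markers was lower in every library of 16 h and 1.5 d. With the keratinocyte score in the fit, 18 of the 19 calls at 16 h were kept, but 4 remained at 1.5 d and 1, Psmd2, at 3 d, where 22.9%, 9.89% and 8.96% of all genes were called. The part of the leukocyte, endothelial, pericyte and fibroblast markers in these results was not tested. The count at 16 h was 12 without 16 h replicate 2, where 14.5% of all genes were called. It lay between 14 and 21 without any other single library. At 1.5 d the count was 5 without NW replicate 1 (20.4% of all genes) or 1.5 d replicate 1 (19.2%). Without NW replicate 3 it was 6 (17.5%). At 3 d the count was 1 without 3 d replicate 1 (11.8%) and 2 without NW replicate 2 (13.9%) or NW replicate 3 (14.9%). The plot of changes by role sets the genes side by side.

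**Figure D1:**
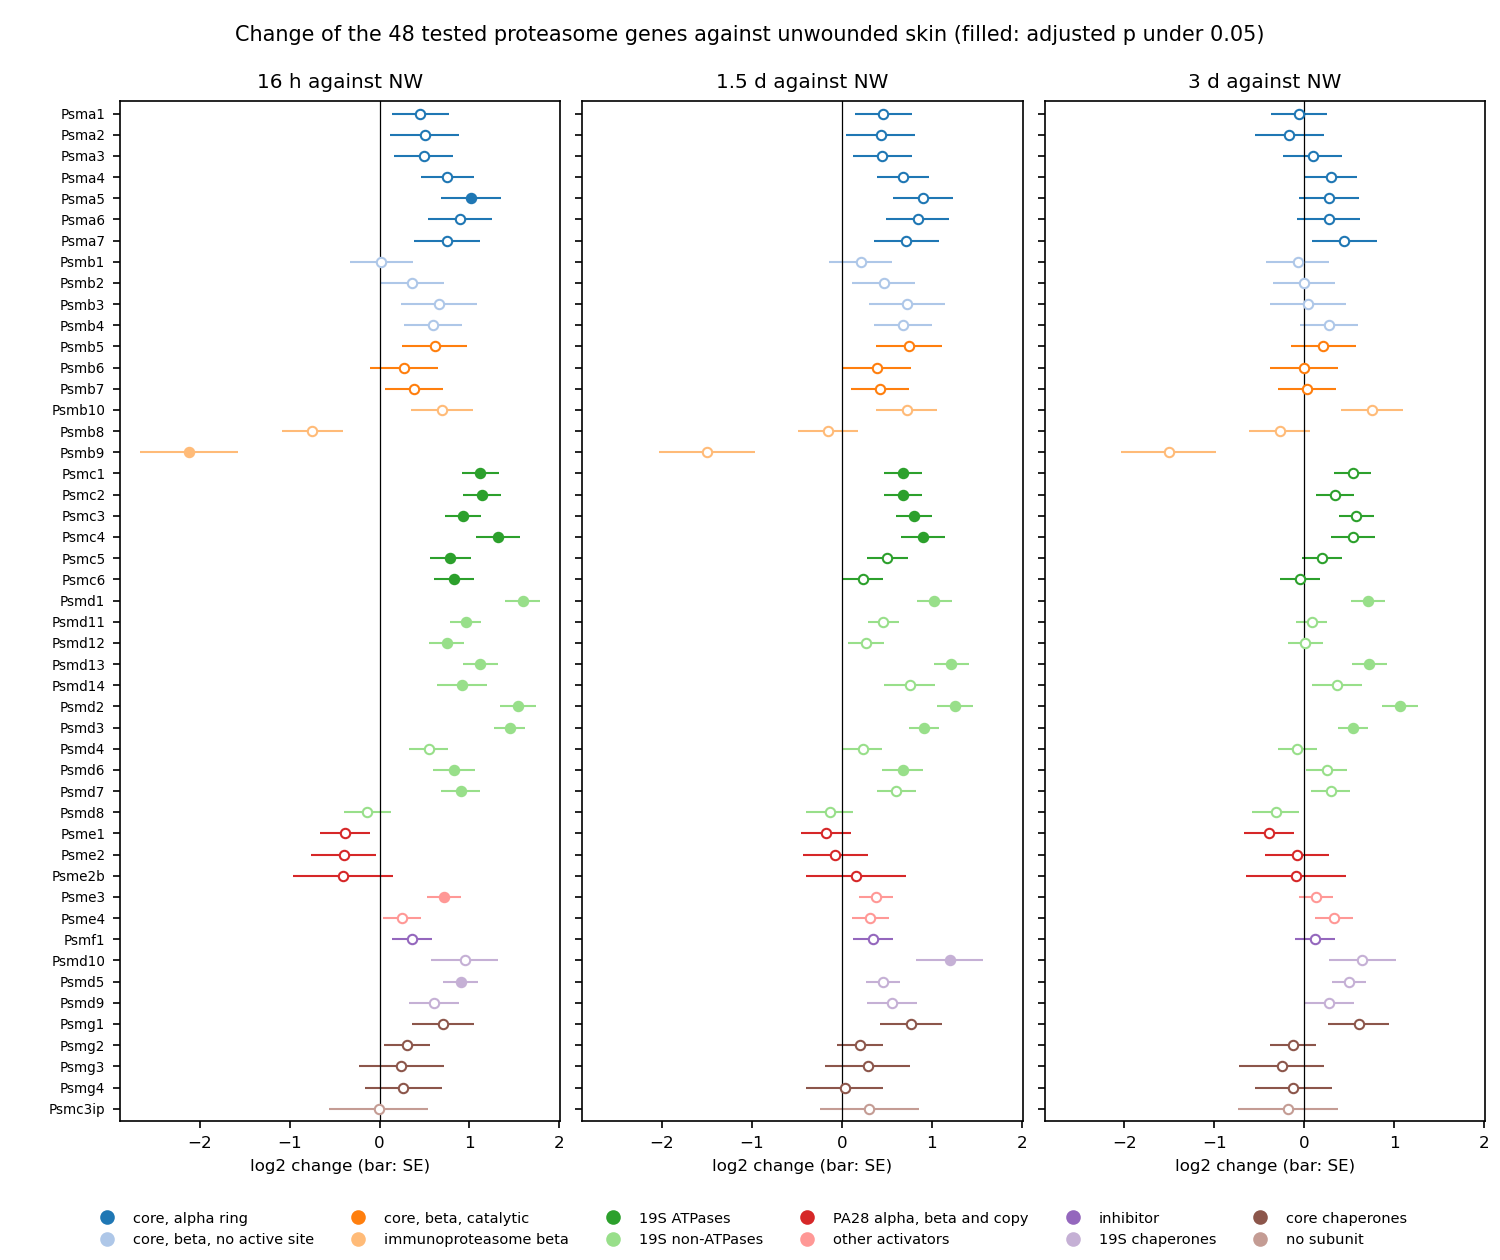
Log2 change of each of the 48 tested genes against NW at 16 h, 1.5 d and 3 d (horizontal axis), 1 row per gene, coloured by role. Bars are SEs and filled points passed an adjusted p under 0.05 in the edgeR quasi-likelihood test. The 6 ATPases of the 19S cap are all filled at 16 h, the 7 constitutive beta subunits are all open at every time, and Psmb9 is the gene farthest below 0.

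The 6 ATPases that form the unfolding ring of the cap, Psmc1 to Psmc6, all rose at 16 h, with a median log2 change of 1.02. Psmc4 moved most: its 3 NW libraries held 79.1, 116 and 74.1 CPM and the 16 h libraries 207, 227 and 239 CPM. It stood at 210.1, 137 and 157 CPM at 1.5 d and 130.4, 99.5 and 162 CPM at 3 d. All 16 h libraries lay above all NW libraries (2.50-fold, log2 1.32 ± 0.25, adjusted p = 0.00220), and at 3 d the groups overlapped. The smallest rise of the ring was that of Psmc5, by 1.72-fold (log2 0.79 ± 0.23, adjusted p = 0.0230). At 1.5 d Psmc1, Psmc2, Psmc3 and Psmc4 were still called, at log2 changes of 0.68 to 0.91, and at 3 d none was.

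Of the 11 non-ATPase subunits, which build the scaffold and the lid of the cap, 9 rose at 16 h, 5 at 1.5 d and 4 at 3 d. Psmd1 and Psmd2 are the large scaffold proteins of the base to which ubiquitin receptors and shuttles dock. Psmd1 (chr1:86064619-86139295, mm10) held 137, 122 and 159 CPM in NW and 434, 471 and 356 CPM at 16 h. Its libraries held 284, 259.6 and 309 CPM at 1.5 d and 259, 197 and 228 CPM at 3 d. Every wound library exceeded every NW library, and the group means fell in order from 16 h to 3 d. The rises were 3.02-fold at 16 h (log2 1.59 ± 0.20, adjusted p = 0.000144), 2.04-fold at 1.5 d (0.00228) and 1.63-fold at 3 d (0.0195).

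Psmd2 (chr16:20651652-20663414) was the cap gene with the highest level per kilobase of transcript. It held 239, 206 and 213 CPM in NW, 679, 713 and 520.3 at 16 h, 436, 546 and 589 at 1.5 d and 517, 425 and 434 at 3 d. Again no wound library overlapped NW, and within NW the 3 libraries lay close together. The rises were 2.91-fold (log2 1.54 ± 0.20, adjusted p = 0.000230), 2.39-fold (0.000858) and 2.09-fold (0.00250), and the last was the largest of any proteasome gene at 3 d.

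Psmd3 (chr11:98682554-98695978) and Psmd13 (chr7:140882394-140898642) encode subunits of the lid. Psmd3 held 134, 129 and 122 CPM in NW, 329, 376 and 343 at 16 h, 271, 229 and 226 at 1.5 d and 192, 173 and 194 at 3 d. No wound library overlapped NW, and each group mean after 16 h was lower than the one before. It rose 2.72-fold at 16 h (log2 1.45 ± 0.17, adjusted p = 0.000104), 1.89-fold at 1.5 d (0.00185) and 1.45-fold at 3 d (0.0340). Psmd13 held 80.8, 75.1 and 58.9 CPM in NW, 153, 157 and 158 at 16 h, 185, 142 and 172 at 1.5 d and 128, 97.3 and 129 at 3 d. In contrast with the other 3 it had its highest mean at 1.5 d, 166 ± 22.3 CPM against 156 ± 2.61 at 16 h, although that difference was not called (adjusted p = 0.861). Its rises were 2.18-fold (0.00142), 2.32-fold (0.000932) and 1.65-fold (0.0188). The 3 d calls of Psmd1, Psmd3 and Psmd13 were lost in several alternatives, and all 3 were lost without 3 d replicate 1 and with the keratinocyte score in the fit. The call of Psmd2 was kept in both.

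**Figure D2:**
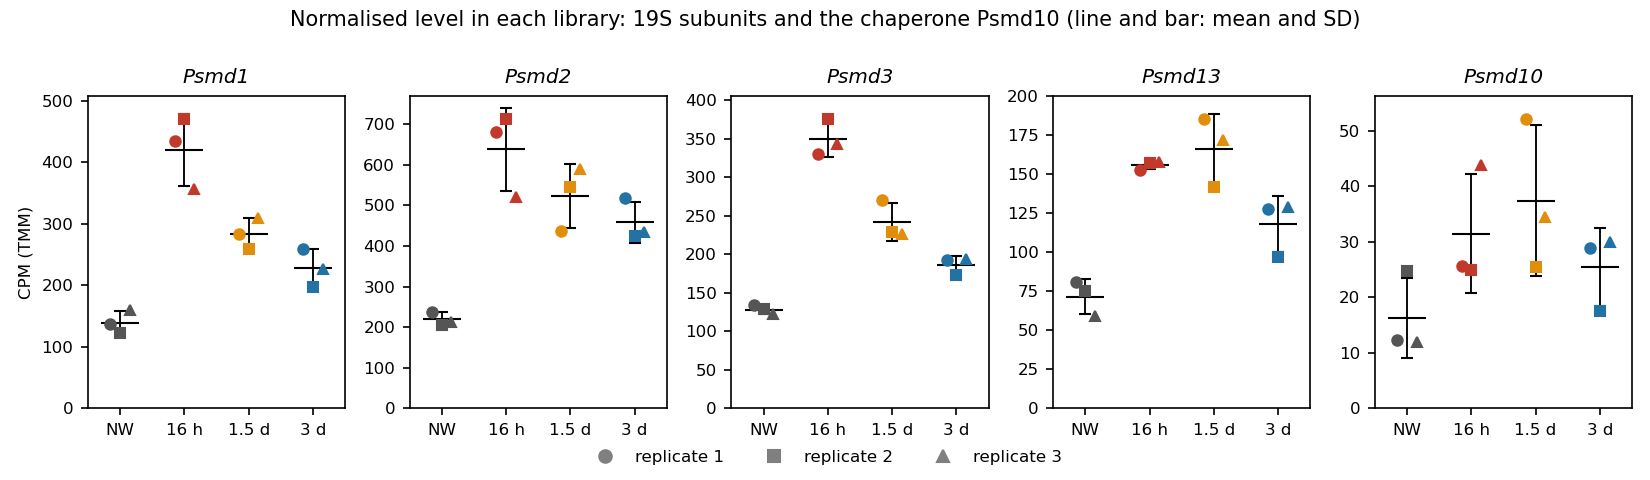
CPM (vertical axis) of the 4 cap subunits called at all 3 times and of the assembly chaperone Psmd10 in each of the 12 libraries, by group. Markers show replicate numbers, the line and bar the mean and SD. For Psmd1, Psmd2, Psmd3 and Psmd13 all 9 wound libraries lie above the 3 NW libraries, while for Psmd10 NW replicate 2 (24.6 CPM) lies just under the lowest 16 h library (24.8 CPM) and 3 d overlaps NW.

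The remaining lid and base genes had smaller changes. Psmd11, Psmd12, Psmd6, Psmd7 and Psmd14, the lid enzyme that cuts ubiquitin chains off the substrate, rose at 16 h by 1.68- to 1.94-fold, and of these Psmd6 was also called at 1.5 d (1.60-fold, adjusted p = 0.0468). Psmd4, a ubiquitin receptor, stood at 116, 161 and 113 CPM in NW and 174, 176 and 219.6 CPM at 16 h, a log2 difference of 0.55 ± 0.22 that was not called (adjusted p = 0.0845). Psmd8, a lid subunit, was the only constitutive subunit with a mean below NW at 16 h, at 188 ± 28.5 against 206 ± 52.3 CPM, a difference within the spread (adjusted p = 0.746).

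The core barrel had the same direction as the cap but few calls. Of its 14 constitutive subunits, all 14 had a higher mean at 16 h than in NW, and 1 was called, Psma5 of the alpha ring, from 47.0, 68.1 and 46.6 to 105, 97.8 and 125 CPM (2.03-fold, log2 1.02 ± 0.34, adjusted p = 0.0415). That call was lost without NW replicate 1, NW replicate 3 or any 16 h library. The median log2 change was 0.75 for the 7 alpha subunits, which gate the barrel, 0.48 for the 4 beta subunits without a cutting site and 0.39 for the 3 catalytic ones. At 1.5 d and 3 d no core subunit was called, with medians of 0.68, 0.57 and 0.42 at 1.5 d and 0.27, 0.02 and 0.03 at 3 d. The difference between core and cap was not tested.

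Core genes varied more between replicates than cap genes, and their transcripts are shorter. The within-group SD of log2 CPM ran from 0.39 (Psma4) to 0.61 (Psmb3) over the 14 core genes and from 0.10 (Psmd3) to 0.37 (Psmd14) over the 17 cap genes. Core transcripts have a median annotated length of 1036 bp, 6 of 14 under 1 kb, and cap transcripts of 1564 bp, none under 1 kb. The summed level of the core subunits was 1199, 1988 and 1072 CPM in NW, 1828, 1790 and 2556 at 16 h, 3067, 1533 and 1675 at 1.5 d and 1492, 973 and 2144 at 3 d. In each group the highest sum was that of the library with the largest share of counts on short genes. The cap sums were 2037, 2391 and 1984 CPM in NW, 4179, 4425 and 4453 at 16 h, 3910, 3166 and 3271 at 1.5 d and 2941, 2391 and 3113 at 3 d. The same library was the highest there too, but by less, and all 16 h sums exceeded all others.

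**Figure D3:**
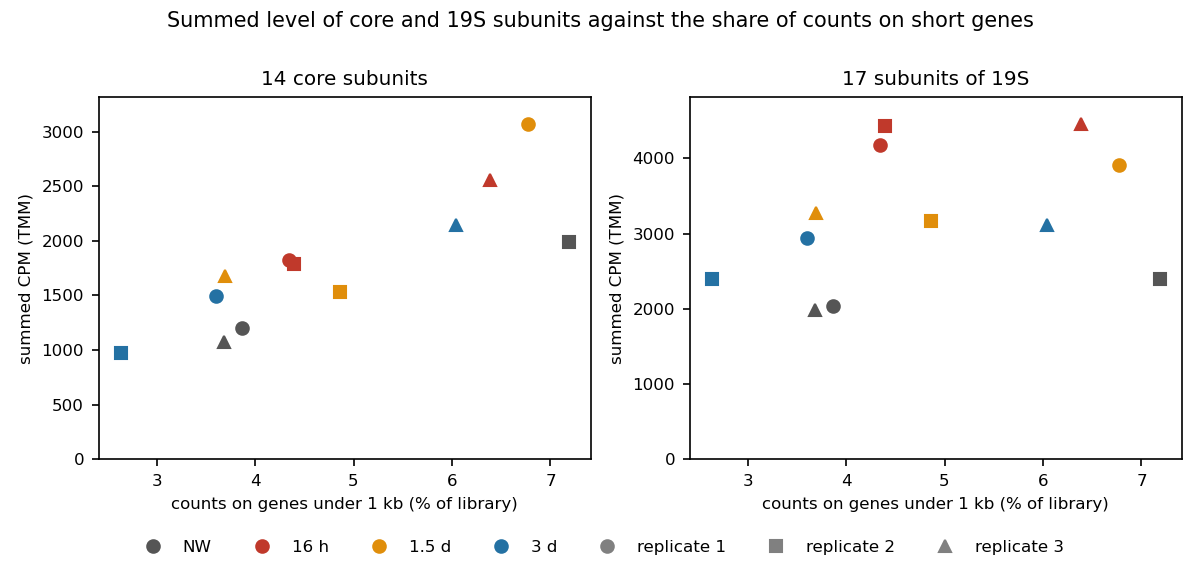
Summed CPM of the 14 constitutive core subunits (left) and the 17 cap subunits (right), vertical axes, against the percentage of each library's counts on genes under 1 kb (horizontal axis), 1 point per library. The 4 points beyond 6% are 1 library of each group and hold the highest core sum of their group.

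With the log2 share of counts on short genes as a covariate, 32 of 48 genes were called at 16 h, 28 up and 4 down (32.8% of all genes were called in that fit), and all 19 earlier calls were among them. Core calls became 4 of 7 alpha, 2 of 4 structural beta and 1 of 3 catalytic beta subunits, Psmb5, while the ATPases stayed at 6 of 6 and the other cap subunits came to 10 of 11. Sizes at 16 h moved little, with the median of the alpha subunits at 0.68 in place of 0.75. Psma7 of the alpha ring was at log2 0.75 (adjusted p = 0.152) at 16 h without the covariate and 0.68 (0.00191) with it. In that fit 24 genes were called at 1.5 d, 23 of them up, and 17 at 3 d, 16 of them up, beside 32.3% and 25.6% of all genes. Sizes moved more at 3 d: Psma7 went from log2 0.45 to 0.69, Psmb3 from 0.04 to 0.39 and Psmd10 from 0.64 to 0.95. Psmd2 went the other way, from 1.06 to 1.00. Leaving out the 4 libraries gave 26 calls at 16 h (25 up), 11 at 1.5 d (10 up) and 2 at 3 d (Psmd2 up and Psmb9 down), beside 21.2%, 18.5% and 16.9% of all genes.

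Of the inducible catalytic subunits Psmb9 fell, and Psmb8 and Psmb10 were not called. Psmb9 (chr17:34182099-34187330), which replaces Psmb6, held 24.4, 36.5 and 21.9 CPM in NW and 3.77, 2.80 and 12.5 CPM at 16 h. Its libraries held 13.8, 8.55 and 6.95 CPM at 1.5 d and 6.51, 7.54 and 15 CPM at 3 d. Every wound library lay below every NW library. It fell 4.35-fold at 16 h (log2 -2.12 ± 0.54, adjusted p = 0.0131) and was 2.83-fold lower at 1.5 d and 2.84-fold lower at 3 d, which did not pass the threshold (0.0552 and 0.0599). The fall at 16 h was no longer called without 16 h replicate 1 (log2 -1.85, adjusted p = 0.0525) or without 16 h replicate 2 (log2 -1.76, adjusted p = 0.0540). The differences at 1.5 d and 3 d were called by DESeq2 (adjusted p = 0.0199 and 0.0237), and with the short-gene covariate in edgeR all 3 times were called (0.000655, 0.00542 and 0.0308).

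Psmb8 (chr17:34198195-34201454), which replaces Psmb5, held 74.4, 104 and 51.5 CPM in NW, 39.1, 33.9 and 63.9 at 16 h, 97.8, 50.1 and 58.2 at 1.5 d and 62.8, 48.7 and 78.4 at 3 d. Its mean was lowest at 16 h but the groups overlapped, and no time was called (log2 -0.75 ± 0.34 at 16 h, adjusted p = 0.125). With the covariate, Psmb8 was lower at 16 h (log2 -0.81, adjusted p = 0.00922). Psmb10 (chr8:105935728-105938392), which replaces Psmb7, held 28.8, 29.7 and 18.4 CPM in NW, 29.2, 34.8 and 60.8 at 16 h, 56.9, 41.6 and 28.6 at 1.5 d and 38.1, 34.4 and 57.3 at 3 d. Unlike Psmb8 and Psmb9 it had a higher mean than NW at all 3 times, and at 3 d its libraries did not overlap with NW, but no time was called (adjusted p = 0.155, 0.144 and 0.138). With the covariate, it was called at 3 d (log2 0.94, adjusted p = 0.00985).

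Their constitutive partners were not called at any time by the test without covariates over all 12 libraries. Psmb5, the chymotrypsin-like subunit, held 47.6, 80.2 and 45.8 CPM in NW, 78.6, 78.1 and 109 at 16 h, 148, 63.2 and 80.5 at 1.5 d and 61.5, 42.4 and 96.9 at 3 d. Psmb6, the caspase-like subunit, held 93.5, 202 and 103 CPM in NW, 148, 135 and 198 at 16 h, 253, 129 and 140.1 at 1.5 d and 127, 77.3 and 195 at 3 d. Psmb7, the trypsin-like subunit, held 51.0, 82.8 and 50.9 CPM in NW, 78.1, 67.4 and 96.0 at 16 h, 119, 57.6 and 69.9 at 1.5 d and 61.5, 42.1 and 84.5 at 3 d. In all 3 the library rich in short genes was the highest of its group, and NW replicate 2 exceeded at least 2 of the 16 h libraries. Their log2 changes at 16 h were 0.61 ± 0.36, 0.27 ± 0.38 and 0.39 ± 0.32, with adjusted p values of 0.238, 0.647 and 0.411. With the share on short genes as a covariate Psmb5 was called at 16 h (log2 0.57, adjusted p = 0.0328) and 1.5 d (0.66, 0.0157), and without the 4 libraries at 16 h (0.75, 0.0468).

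**Figure D4:**
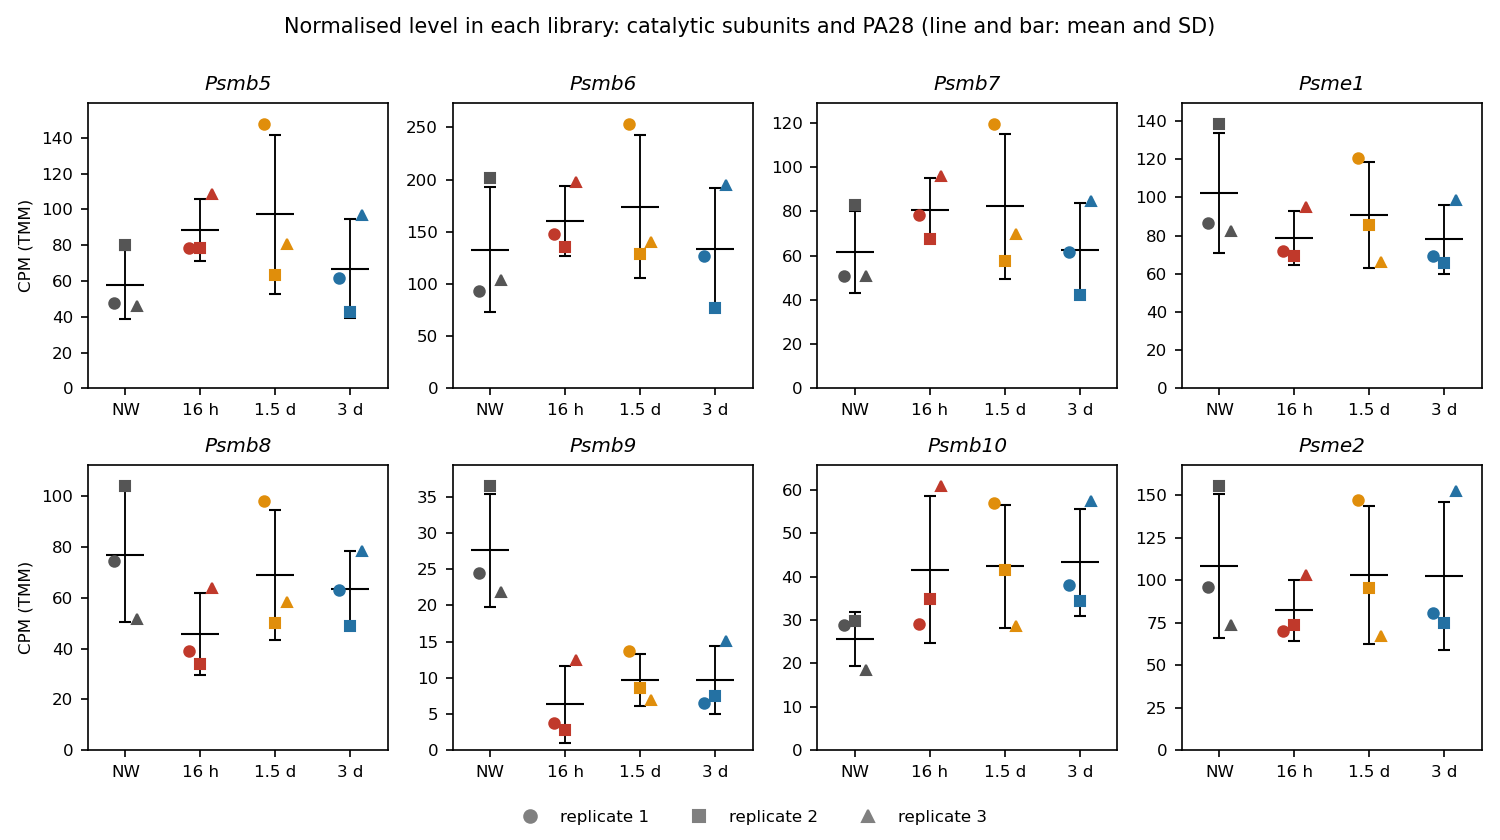
CPM (vertical axes, each from 0) of the constitutive catalytic subunits (top row) and the inducible ones (bottom row), with the PA28 genes on the right, in each of the 12 libraries by group. Markers show replicate numbers, the line and bar the mean and SD. For Psmb9 the 9 wound libraries lie below the 3 NW libraries, and of the other 7 genes only Psmb10 has a wound group, 3 d, clear of NW.

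A ratio within a library is free of library scaling, so each inducible subunit was also divided by its constitutive partner, per kilobase. Psmb8 over Psmb5 was 1.11, 0.922 and 0.801 in NW, 0.354, 0.309 and 0.419 at 16 h, 0.471, 0.565 and 0.515 at 1.5 d and 0.728, 0.817 and 0.577 at 3 d. The ratio was near 1 in NW, had its lowest mean at 16 h and higher means at each later time. The 16 h and 1.5 d libraries did not overlap with NW. Counts on the 12.5% of Psmb5 exon bases shared with Mir686 were dropped, so this ratio may read high in every group. The 4 groups differed by an exact permutation test over 369600 allocations (p = 0.00013, adjusted over the 3 ratios p = 0.00039). Psmb9 over Psmb6 was 0.336, 0.232 and 0.273 in NW, 0.0330, 0.0268 and 0.0811 at 16 h, 0.0699, 0.0852 and 0.0639 at 1.5 d and 0.0660, 0.126 and 0.0993 at 3 d. It was lower in all 9 wound libraries than in any NW library, with a geometric mean 6.67-fold lower at 16 h and 2.96-fold lower at 3 d. The same test for any difference among the 4 groups gave p = 0.00221 (exact permutation, adjusted p = 0.00331). Psmb10 over Psmb7 was 0.432, 0.274 and 0.277 in NW, 0.285, 0.394 and 0.483 at 16 h, 0.363, 0.550 and 0.312 at 1.5 d and 0.473, 0.622 and 0.518 at 3 d. Here the mean was highest at 3 d, the groups overlapped in part, and the test gave p = 0.179 (exact permutation, adjusted p = 0.179). Pairs of groups were not tested, since a two-sided exact permutation test of 3 against 3 cannot go below p = 0.10. The plot of ratios shows the 3 pairs.

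**Figure D5:**
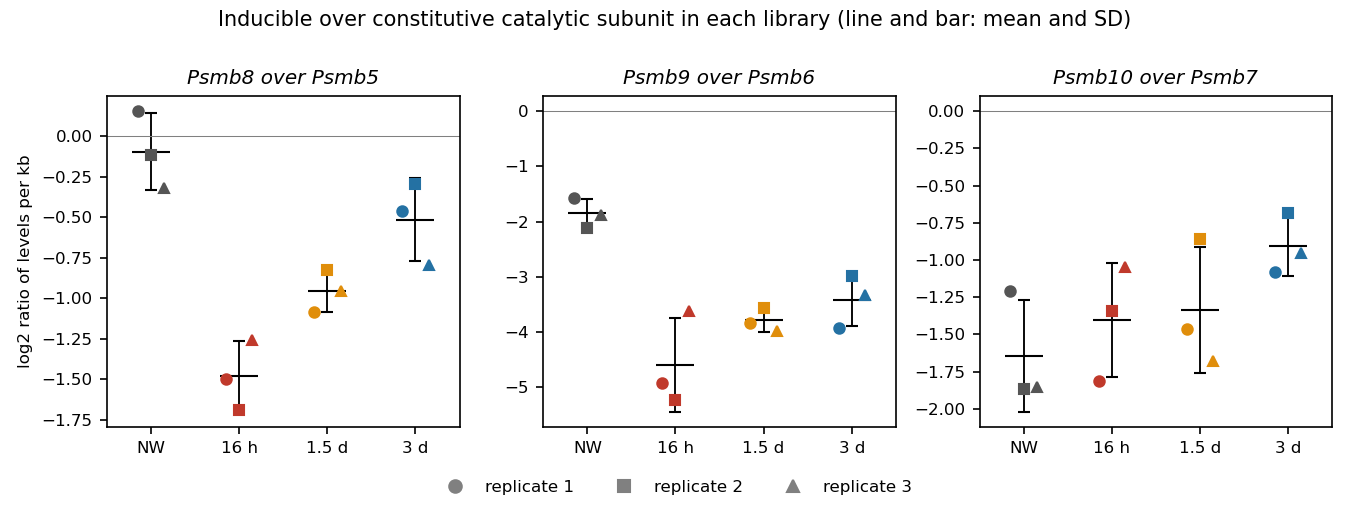
Log2 ratio of the levels per kilobase of each inducible catalytic subunit to its constitutive partner (vertical axes) in the 12 libraries by group, where 0 means equal levels as counted. Markers show replicate numbers, the line and bar the mean and SD. Psmb8 over Psmb5 and Psmb9 over Psmb6 are lowest at 16 h, and Psmb10 over Psmb7 is not.

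The promoter of Psmb9 is shown because it is the proteasome gene that fell and a textbook target of interferon. Psmb9 lies head to head with Tap1, the peptide transporter, with 226 bp between their annotated starts. RefSeq promoters (GRCm38.p6) were available for 42 of the 50 genes. The 250 bases upstream of each start were searched on both strands for the core of the interferon-stimulated response element, GAAA, any pair of bases, GAAA. A second interferon site, GAS, was searched as TTCNNNGAA, where N is any base. The sequence runs 5′ to 3′ towards the start, at chr17:34187331-34187580 on the minus strand, with no capitals because it held no match.
Psmb9: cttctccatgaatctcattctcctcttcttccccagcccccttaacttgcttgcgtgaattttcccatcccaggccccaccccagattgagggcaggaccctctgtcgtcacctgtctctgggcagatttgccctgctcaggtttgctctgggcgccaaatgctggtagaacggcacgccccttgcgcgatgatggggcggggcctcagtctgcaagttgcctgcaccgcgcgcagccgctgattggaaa
The core occurred in 2.98% of all 32851 promoters, and among the 45 promoters of the proteasome genes in those of Psmb3, Psmd4 and Psmd9. The GAS letters occurred in 7.02% of all promoters and in 4.44% of the 45, those of Psmb8 (from -97 to -89 of the start) and Psmg1. The absence of both strings from the window of Psmb9 says only that these letters are not in it.

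Neither gene of the PA28 cap was called. Psme1 (chr14:55578494-55581527) held 86.3, 138 and 82.2 CPM in NW, 71.8, 69.1 and 95.1 at 16 h, 121, 85.6 and 66.3 at 1.5 d and 69.5, 65.8 and 98.7 at 3 d. Psme2 (chr14:55587440-55591101) held 95.9, 155 and 73.9 CPM in NW, 69.8, 73.9 and 103 at 16 h, 147, 95.2 and 67.2 at 1.5 d and 80.5, 74.6 and 152 at 3 d. NW replicate 2 was the highest library of both genes, and the groups overlapped at every time. The log2 changes at 16 h were -0.38 ± 0.28 and -0.40 ± 0.36 (adjusted p = 0.347 and 0.454), and with the covariate both were called lower (-0.41 and -0.44, adjusted p = 0.0303 and 0.0333). Psme2b, a near-identical copy of Psme2, had group means of 1.90 to 2.82 CPM, and reads shared by the copies were not counted, so both levels are uncertain.

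The other activators and the regulators changed as follows. Psme3, the nuclear PA28 activator, rose 1.64-fold at 16 h, from 105 ± 15.7 to 173 ± 20.7 CPM (adjusted p = 0.0154), and Psme4, the large PA200 activator, did not pass the test (log2 0.25, 0.407). The inhibitor Psmf1 had a log2 difference of 0.36 (0.257). Of the 3 chaperones that assemble the base, Psmd5 rose 1.87-fold at 16 h (0.00469), Psmd9 was not called, and Psmd10, also known as gankyrin, was called at 1.5 d. Psmd10 (chrX:140948425-140956711) held 12.3, 24.6 and 11.9 CPM in NW, 25.7, 24.8 and 43.7 at 16 h, 52.1, 25.5 and 34.5 at 1.5 d and 28.9, 17.4 and 30.0 at 3 d. At 1.5 d its libraries were all above NW, by 2.29-fold (log2 1.20 ± 0.38, adjusted p = 0.0343). That call was lost without NW replicate 1, NW replicate 3, 1.5 d replicate 1 or 1.5 d replicate 3. It was also lost with the keratinocyte score in the fit (adjusted p = 0.183), without TMM (0.0528) and with the replicate block (0.0772). With the short-gene covariate in edgeR, Psmd10 was called at 16 h, 1.5 d and 3 d (adjusted p = 0.0117, 0.00289 and 0.0153). At 16 h it was also called without the 4 libraries rich in short genes (0.0386) and without NW replicate 2 (0.0271). The 4 chaperones of the core, Psmg1 to Psmg4, had log2 changes of 0.24 to 0.70 at 16 h. None was called at any time by the test without covariates over all 12 libraries. With the short-gene covariate in edgeR, Psmg1 was called at 16 h, 1.5 d and 3 d (adjusted p = 0.0481, 0.0328 and 0.0233). Psmd9 was also called in that fit, at 16 h (0.0480). Psmc3ip had group means of 3.16 to 4.43 CPM and was not called. Psma8 was counted in 3 libraries and Psmb11 in 3, each at no more than 0.285 CPM, where 3 counts stand for 0.0690 to 0.114 CPM.

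From 16 h to 3 d, 2 of the 6 ATPases and 4 of the 11 other cap subunits fell. Over the same step all 31 constitutive subunits had a lower mean, with a median log2 change of -0.57 beside -0.02 over all genes, and 6 of the 48 proteasome genes fell and none rose (9.53% of all genes were called, 5.86% rose and 3.67% fell). They were Psmc2, Psmc6, Psmd1, Psmd3, Psmd11 and Psmd12, at log2 changes of -0.73 to -0.91. At 3 d, 18 of the 48 lay below all 16 h libraries and none above (15.5% and 17% of all genes). Psmd11, a lid subunit, held 275, 325 and 298 CPM at 16 h and 173, 152 and 167 CPM at 3 d, beside 149, 165 and 149 CPM in NW. The 3 d libraries lay below all 16 h libraries and overlapped with NW, and the fall was 1.83-fold (adjusted p = 0.00779). Psmc6 and Psmd12 also overlapped with NW at 3 d, with log2 changes against NW of -0.05 and 0.01, whereas Psmd1 and Psmd3 were still called above it. The count fell to 2 without 16 h replicate 2 (4.68% of all genes) or 3 d replicate 2 (5.24%). It fell to 3 without 16 h replicate 1 (5.72%) or 16 h replicate 3 (6.07%). The steps from 16 h to 1.5 d and from 1.5 d to 3 d held no call by edgeR (2.86% and 0.141% of all genes), with 7 and 3 genes at an unadjusted p under 0.05, all of them lower, and 2 and 0 calls by DESeq2.

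Psmc6 and Psmd12 rose at 16 h and fell from 16 h to 3 d. Of the 18 genes called as rising at 16 h, 15 had an available promoter. Among these, only the promoters of Psmc6 and Psmd12 held TGACNNNGC. These are the letters of the antioxidant response element, the site through which NFE2L1 is known to raise proteasome genes when proteasome activity is short. The capitals mark the match, read from the other strand, from -227 to -219 of the start in Psmc6 (chr14:45329574-45329823, plus strand) and from -247 to -239 in Psmd12 (chr11:107479278-107479527, plus strand).
Psmc6: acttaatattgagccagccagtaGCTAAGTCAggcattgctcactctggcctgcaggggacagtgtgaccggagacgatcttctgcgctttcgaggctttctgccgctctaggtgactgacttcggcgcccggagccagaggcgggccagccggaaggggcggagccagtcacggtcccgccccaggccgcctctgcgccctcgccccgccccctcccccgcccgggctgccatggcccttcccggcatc
Psmd12: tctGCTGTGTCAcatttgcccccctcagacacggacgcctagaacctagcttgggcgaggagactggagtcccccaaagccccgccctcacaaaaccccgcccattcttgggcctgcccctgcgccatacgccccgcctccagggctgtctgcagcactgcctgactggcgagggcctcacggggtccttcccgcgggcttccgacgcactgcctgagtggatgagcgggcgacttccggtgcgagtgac
The string occurred in 10.2% of all promoters, in 11.1% of the 45 promoters of the proteasome genes and in 12.5% of the 16 promoters of those that rose at 16 h, so it was about as common there as elsewhere. Psmb5, Psmb6 and Psmd9 held it too and were not called at 16 h by the test without covariates over all 12 libraries. A match is a run of letters and not a shown binding site.

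Levels per kilobase of transcript spanned a 3.00-fold range over the core and a 2.40-fold range over the cap. Over the 12 libraries the core subunits ran from 66.0 (Psma3) to 198 (Psmb2) CPM per kb, with a median of 122, and the cap subunits from 62.8 (Psmc6) to 151 (Psmd2), with a median of 107. Psmb2, Psmb3, Psmd2 and Psmc5 headed the order at 198, 151, 151 and 146 CPM per kb, and their ranges over libraries overlapped. Psmd2 itself went from 71.8 CPM per kb in NW to 209 at 16 h, and Psmb2 from 169.6 to 218. The PA28 genes Psme2 and Psme1 lay within the subunit range at 101 and 89.5 CPM per kb, and the inducible Psmb8, Psmb10 and Psmb9 below it at 52.0, 30.1 and 16.6. The chaperones and the inhibitor lay between 9.22 (Psmf1) and 29.8 (Psmg1). Of the 50 genes, 5 share exon bases with another gene, most of all Psme2b (24.6%) and Psmb5 (12.5%, with the microRNA gene Mir686), and counts on shared bases were dropped.

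Subunits and helpers of the pathway that do not carry the Psm name moved in part with the cap. Adrm1, a ubiquitin receptor of the base, held 64.1, 84.6 and 60.8 CPM in NW and 138, 143 and 169.9 CPM at 16 h. It rose 2.15-fold (adjusted p = 0.00232) and was at 85.9, 68.9 and 93.8 CPM at 3 d, when it was not called (0.441). It was the 1 call at 16 h among 5 tested genes of a list of further subunits and assembly factors (24.7% of all genes were called). Pomp, which matures the core, Sem1, a small lid subunit, Akirin2, which brings proteasomes into the nucleus, and Ecpas, which binds them, had log2 differences of 0.13, -0.76, -0.02 and 0.70.

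Of 13 deubiquitinases, ubiquitin shuttles and unfolding factors, all 13 were higher at 16 h and 6 rose (median log2 0.66). At 1.5 d 4 rose and at 3 d 2, and none fell. The genes that rose made up 46.2%, 30.8% and 15.4% of the list, beside 13.5%, 13.7% and 12% of all genes. Vcp, the ATPase that pulls ubiquitin-tagged proteins out of membranes and complexes, held 272, 226 and 278 CPM in NW, 852, 912 and 678 at 16 h, 483, 653 and 604 at 1.5 d and 672, 596 and 521 at 3 d. No wound library overlapped NW, and the rise at 16 h was 3.15-fold (adjusted p = 0.000164). Its cofactor Nploc4 rose 3.62-fold (0.000383), and the partner Ufd1 did not pass the test (log2 0.19, 0.541). Usp14, a deubiquitinase seated on the cap, rose 2.45-fold from 59.8 ± 8.42 to 147 ± 4.04 CPM (0.000633). The shuttles Ubqln1 and Rad23b rose 2.10- and 1.86-fold (0.00413 and 0.00607).

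Ubiquitin itself and the transcription factors of the proteasome gave few calls. Of 11 genes for ubiquitin, its activating enzymes and conjugators, 1 rose at 16 h and 2 at 1.5 d and 3 d. These were 9.09%, 18.2% and 18.2% of the list, beside 13.5%, 13.7% and 12% of all genes. Uba1, the main activating enzyme, rose 1.94-, 1.95- and 1.80-fold at the 3 times (adjusted p = 0.00685, 0.00661 and 0.0150). Ube2l6, the conjugating enzyme of the ubiquitin-like ISG15, rose later, 2.82-fold at 1.5 d and 2.72-fold at 3 d (0.00580 and 0.00798). Of 8 genes around NFE2L1 none was called at 16 h, when 24.7% of all genes were. Nfe2l1 held 170.4, 171 and 203 CPM in NW and 355, 341 and 199 CPM at 16 h, where replicates 1 and 2 were above and replicate 3 within the NW range (log2 0.72 ± 0.26, 0.0593). Maff, a small partner of these factors, fell 1.91-fold at 1.5 d and 2.29-fold at 3 d (0.0133 and 0.00415).

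Genes of antigen processing and interferon signalling were set beside the inducible subunits. Of 24 tested, 4 rose and 5 fell at 16 h, 5 rose and 5 fell at 1.5 d, and 6 rose and 6 fell at 3 d. The share that rose was 16.7%, 20.8% and 25%, beside 13.5%, 13.7% and 12% of all genes. Of all genes, 11.2%, 10.8% and 9.15% fell. Irf1, the transcription factor known to drive Psmb9, held 355, 325 and 256 CPM in NW, 73.7, 68.4 and 88.1 at 16 h, 59.2, 88.3 and 58.0 at 1.5 d and 62.6, 159 and 137 at 3 d. It was lower than NW in all 9 wound libraries and was called at each time (adjusted p = 0.000675, 0.000473 and 0.00687). Tap1, the neighbour of Psmb9, held 79.4, 86.8 and 91.4 CPM in NW and 63.1, 61.8 and 74.5 CPM at 16 h. Those libraries did not overlap, but the log2 difference of -0.37 ± 0.20 was small and not called (0.199).

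Of 4 interferon receptor genes, 1 fell, 2 rose and 1 was not called at 16 h. Ifngr1, the ligand-binding chain of the receptor for interferon gamma, fell 1.87-fold at 16 h and 2.81-fold at 3 d (adjusted p = 0.00179 and 7.68e-05), and Ifnar1 and Ifnar2, the receptor of type I interferon, rose 2.24- and 2.03-fold at 16 h (0.00247 and 0.00541). Ifngr2, the other chain of the receptor for interferon gamma, was at log2 0.32 at 16 h (0.375) and was not called at any time. Ifng was at 0 counts in all 12 libraries. Nlrc5, an activator of MHC class I genes, was 2.43-fold lower at 16 h without passing the test (0.121) and fell 5.57-fold at 1.5 d (0.00935). Further genes called at 16 h, named after their values were seen, were Jak1, B2m, H2-K1 and Ifnb1. Jak1 rose 2.00-fold. B2m and H2-K1 of MHC class I fell 1.91- and 2.00-fold (H2-K1 has near-identical relatives, so its level is uncertain). Ifnb1 fell from 71, 238 and 53 counts in NW to 0, 5 and 0 at 16 h, with at most 4.10 CPM in any group mean.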

How the data were processed

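Full-length cDNA of 12 sorted fibroblast RNA samples was sequenced in paired reads. The authors deposited raw counts of fragments per gene, made with featureCounts 2.0.0 per the file headers. The submitters' processing notes name STAR, SAMtools, Subread and Partek without versions and the build mm10, and the file headers name refGene models. Counting used no strand and, by the header's options, dropped reads with several positions or shared exons, so near-identical copies are uncertain. Here genes passing filterByExpr (14901 of 25239) were scaled by TMM and fitted over all 4 groups in edgeR 4.0.16 (R 4.3.3, quasi-likelihood F test, Benjamini-Hochberg adjusted p). SEs are the log2 change over the root of F. Exchange ratios were compared by an exact permutation test (Python 3.11.15, scipy 1.17.1) and plots made with matplotlib 3.10.9. Replicates are separate mice per the design text, and no pair agreed within counting noise (chi-square per degree of freedom at least 85.9). On simulated data for 16 h against NW, 14.4% of 97 genes changed 2-fold and 63.2% of 95 changed 4-fold were recovered. Only 79 of 14901 genes were called there, against 3687 in the data, so the adjusted threshold was stricter in the simulation. These shares therefore do not give the recovery of the tests reported here.

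The genes and lists were chosen with earlier results of these data known. Values per library were fixed for the inducible subunits, their partners, Psme1, Psme2 and the 3 largest rises and falls called at each time, and up to 5 genes per pathway list by smallest F test p. Psmc4, Psma5, Psmd4, Psmd11, Ufd1 and the last genes of the interferon list were added after their values were seen. A gene of that list is not reported here. Alternatives were DESeq2 1.42.0, limma-voom (limma 3.58.1), other scaling and filters, a replicate block, a keratinocyte covariate, fits of 2 groups and each library left out, and, chosen after seeing the data, a covariate for the share of counts on genes under 1 kb and a fit without the 4 libraries richest in them.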

Additional observations from a re-analysis of the deposited data

Results flagged for a closer look

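For 6 subunits of the cap the change against NW at 3 d differed from that at 16 h by a direct test of the difference, the edgeR quasi-likelihood contrast of 3 d with 16 h. Both changes share the NW libraries, which cancel in the difference. It was -0.80 on the log2 scale for Psmc2 (adjusted p = 0.0299) and -0.87 for Psmc6 (0.0274), both ATPases of the unfolding ring. It was -0.89 for the scaffold subunit Psmd1 (0.0116). Among lid subunits it was -0.91 for Psmd3 (0.00464), -0.87 for Psmd11 (0.00779) and -0.73 for Psmd12 (0.0342). The change was smaller at 3 d in each of the 6. Groups of 3 libraries were not searched for single samples that stand apart.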

How the results depend on the processing

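The 4-group count of 16 genes ranged from 11 to 17 when single libraries were left out. The 16 h count of 19 ran from 12 (without 16 h replicate 2, 14.5% of all genes called) to 21. The 1.5 d count of 10 ran from 5 to 13, the 3 d count of 4 from 1 to 5. The 3 d against 16 h count of 6 ran from 2 to 7. The 1.5 d count was 5 without NW replicate 1 (20.4%) or 1.5 d replicate 1 (19.2%) and 6 without NW replicate 3 (17.5%). The 3 d count was 1 without 3 d replicate 1 (11.8%) and 2 without NW replicate 2 (13.9%) or NW replicate 3 (14.9%). The 3 d against 16 h count was 2 without 16 h replicate 2 (4.68%) or 3 d replicate 2 (5.24%). It was 3 without 16 h replicate 1 (5.72%) or 16 h replicate 3 (6.07%). The 2 steps between neighbouring wound times stayed at 0 calls in all of these.

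Shares of all genes called are in parentheses. DESeq2 called 8 genes at 3 d (28.1%) and 2 between 1.5 d and 16 h (7.95%). Without TMM 6 were called at 1.5 d (23.4%) and 2 at 3 d (20.5%), where that scaling moved the median of all genes by -0.12 on the log2 scale. The keratinocyte covariate left 4 at 1.5 d (9.89%), 1 at 3 d (8.96%) and 3 between 3 d and 16 h (6.11%), and a fit of only those 2 groups left 3 (10%). The short-gene covariate gave 31 over the 4 groups (39.4%), 32 at 16 h (32.8%), 24 at 1.5 d (32.3%), 17 at 3 d (25.6%), 4 between 1.5 d and 16 h (7.56%) and 12 between 3 d and 16 h (15%), and leaving out the 4 libraries gave 2 at 3 d (16.9%). The cause of these shifts was not tested. With a replicate block the counts were 11 over the 4 groups (23.4%), 17 at 16 h (20.3%), 6 at 1.5 d (20.5%), 3 at 3 d (17.3%) and 3 between 3 d and 16 h (6.80%). The numbers do not pair the samples: deviations of same-numbered libraries correlated from -0.17 to 0.17, and 3 of 12 libraries correlated best with their own number.

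Changes against NW were tallied under every alternative for Psmb5 to Psmb10, Psme1, Psme2, Psmd1, Psmd2, Psmd3, Psmd10 and Psmd13 only. Among these, signs turned only for genes that were not called at that time. Signs of other proteasome genes turned too: with the short-gene covariate Psma2, for example, went from -0.17 to 0.11 at 3 d. Without single libraries, the 1.5 d log2 change ran from -0.50 to 0.13 for Psmb8, -0.43 to 0.11 for Psme1 and -0.41 to 0.29 for Psme2. The 3 d change ran from -0.47 to 0.014 for Psmb8, -0.15 to 0.52 for Psmb5, -0.37 to 0.44 for Psmb6, -0.24 to 0.30 for Psmb7 and -0.48 to 0.28 for Psme2. At 3 d Psmb6 was at -0.0084 by limma-voom, -0.087 without TMM and -0.064 with the replicate block, and Psmb7 at -0.066 and -0.032 in the latter pair. Psme2 was at 0.14 at 1.5 d and 0.11 at 3 d with the keratinocyte covariate and at 0.19 at 3 d with the short-gene covariate. Of all values of the tallied genes under an alternative, 813 kept direction and side of the threshold, 28 passed it, 31 no longer did and 25 turned. The exchange ratios kept both when any library was left out, with log2 changes at 16 h of -1.50 to -1.26 for Psmb8 over Psmb5, -3.22 to -2.42 for Psmb9 over Psmb6 and 0.07 to 0.46 for Psmb10 over Psmb7. With 3 mice a group, a miss of the threshold does not show an unchanged gene.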
